A study of Arabidopsis thaliana with 8 samples.

Results

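Plates TA21 to TA30 of a chromosome 4 tiling array form a stretch in which the ratio for dimethylation of lysine 4 of histone H3 (H3K4me2) is low on most probes. Its members are the probes whose ID reads TA, a plate number from 21 to 30, a row from A to H and a well from 01 to 12, and that have a value in all columns. They number 823 of the 21295 probes with values. The plates were picked because earlier results on these same values had shown them to be low. Their low level, and the calls made on it below, are therefore a description and support nothing.

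The series holds 8 samples of 1 group: whole 10-day seedlings labelled ColxC24, grown without treatment. All source names carry that hybrid of Col-0 and C24, whereas the strain entry reads c24; the source names were followed. Whole seedlings mix many cell types. Each of 4 replicates, I to IV, was hybridised on a pair of arrays with the dyes exchanged, immunoprecipitated DNA (IP) against input DNA, with no other strain, antibody or treatment among the samples analysed here. An input DNA tag marks Cy5 in every sample, even where the Cy5 source is an IP, and here too the source name was followed. The columns of each dye swap were identical (0 probes differed), so n = 4. No label ties the replicates to separate plants or chromatin.

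H3K4me2 is a nucleosome mark of genes and their promoters in open chromatin. In Arabidopsis it is scarce in heterochromatin, the compact, repeat-rich chromatin around centromeres and in knobs, where silent transposons carry DNA methylation and methylation of lysine 9 of histone H3 instead. The short arm of chromosome 4 carries such a knob in Col-0 but not in every accession, and genes can lie between the repeats of a knob. The probes come with no gene, sequence or coordinate, so a match of these plates to the knob is inferred from ID order alone and was not tested.

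All values below are a replicate's log ratio minus its median over the 21295 probes, read as log2 and signed as in the deposited table. Which channel is on top, and which logarithm was taken, are not given in the sources used. With the sign turned, every "low" and "below" would read "high" and "above".

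Most probes of the 10 plates were low, but the plates were not uniform. The median ratio of the 823 probes was -2.07, -1.91, -2.10 and -1.89 in replicates I to IV, which average -1.99 ± 0.11 (SD, n = 4). Replicates I and III were slightly lower than II and IV. The mean ratio of single probes ran from -4.38 to 2.07, with 25% of them under -2.73 and 25% over -0.89. By size, 18 probes (2.19%) were under -4, 127 (15.4%) between -4 and -3, 270 (32.8%) between -3 and -2, and 189 (23.0%) between -2 and -1. A further 110 probes (13.4%) lay between -1 and 0, 36 (4.37%) between 0 and 0.5, 33 (4.01%) between 0.5 and 1, and 40 (4.86%) at 1 or more.

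In limma's test for a distance of more than 0.5 from the median probe, fitted on all 21295 probes with Benjamini-Hochberg adjustment at 0.05, 635 of the 823 probes (77.2%) were called below, against 30.6% of all probes. Another 55 (6.68%) were called above, against 28.1% of all probes, and 133 were not called. The count above depends on where 0 is placed and on the distance asked for: it was 21 without centring, 20 with each replicate centred on its mode, 25 at a distance over 1 and 90 at any distance. The plates were chosen on this ratio, so nothing is read from the contrast with the array. The test takes the replicates as independent, which they were not: I was like III and II like IV. The correlation that limma estimated within these pairs, beyond each probe's own mean, was 0.73. With the pairs as a random block, 619 probes were called below and 47 above. All 635 probes called below and all 55 called above had 1 sign in the 4 replicates. The call itself largely brings this about, so it is no separate measure of how well the replicates match. Between 581 (IV) and 620 (III) probes were under -1 in a single replicate, and 551 were under -1 in all 4.

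**Figure D1:**
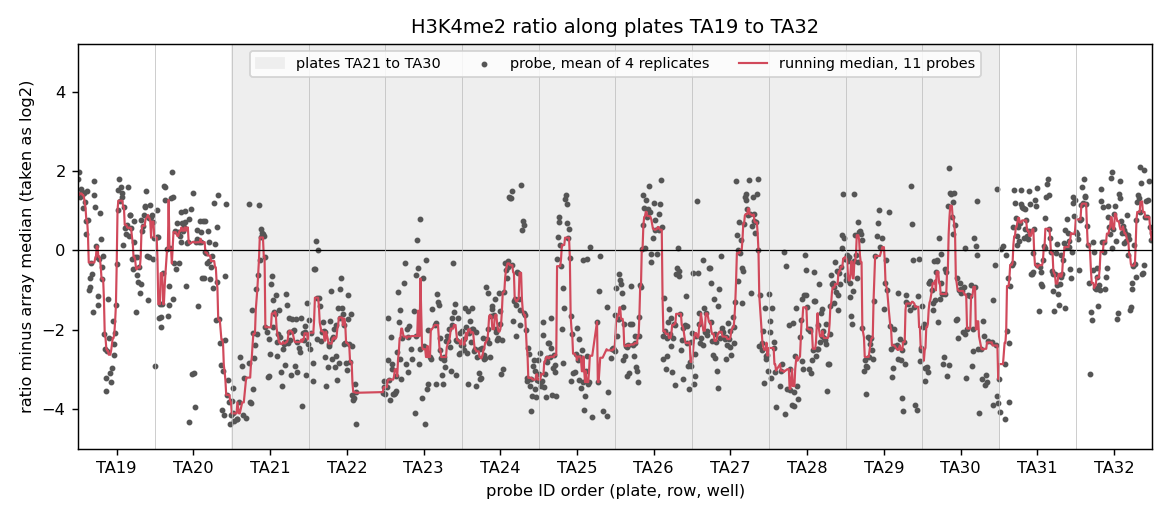
Mean ratio of each probe over 4 replicates (vertical axis, minus the array median, taken as log2) in ID order along plates TA19 to TA32, with plates TA21 to TA30 shaded and a running median over 11 probes. The ratio drops before the shaded stretch begins, stays mostly between -1 and -4 within it, and returns above 0 in a few short islands, the widest in TA26 and TA27.

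The low level began before the first plate bound and ended after the last. Just outside the start, TA20H10, TA20H11 and TA20H12 were at -3.83, -4.38 and -4.14. Just inside it, TA21A01, TA21A02 and TA21A03 were at -3.80, -3.47 and -4.11. The step from low to ordinary values thus does not fall at the plate bound. The 12 valued probes before the bound had a median of -3.46 ± 0.23 and the 12 after it -3.96 ± 0.23 (SD over 4 replicates). Going outward, a running median over 11 probes stayed under -1 back to TA20G08, 15 valued probes into plate TA20.

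At the other end, TA30H10 was at 1.56, a single high probe, followed by TA30H11 at -3.66 and TA30H12 at -3.86. Outside, TA31A01 and TA31A02 were still at -3.24 and -4.06, and TA31A03 was at 0.04. The last 12 valued probes inside had a median of -2.77 ± 0.14 and the first 12 outside -2.17 ± 0.19. The running median stayed under -1 to TA31A10, 7 valued probes into plate TA31. At both bounds the 12 probes inside were lower than the 10 plates together.

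Plate by plate, TA25 had the lowest mean of the replicate medians and TA30 the highest, but neither stood clear of the plate next in order. TA25 had medians of -2.68, -2.41, -2.64 and -2.44 in replicates I to IV, and TA30 had -1.34, -1.18, -1.49 and -1.20. The replicate values of TA25 and TA30 do not overlap. Those of TA30 overlap with TA29, which was the higher of the 2 in replicate III, and TA23 was level with TA25 in replicate II, both at -2.41. TA21, TA22, TA23 and TA24 lay at -2.27 ± 0.06, -2.33 ± 0.16, -2.44 ± 0.06 and -2.04 ± 0.12. TA26, TA27 and TA28 lay at -1.69 ± 0.16, -1.71 ± 0.15 and -1.92 ± 0.09, and TA29 at -1.35 ± 0.11. The first 5 plates together had a median of -2.29 ± 0.10 with 85.8% of their probes called below and 3.55% above. The last 5 had -1.60 ± 0.15, with 69.2% below and 9.56% above. The neighbouring plates were far from these values, TA20 at -0.12 ± 0.08 and TA31 at 0.04 ± 0.01.

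**Figure D2:**
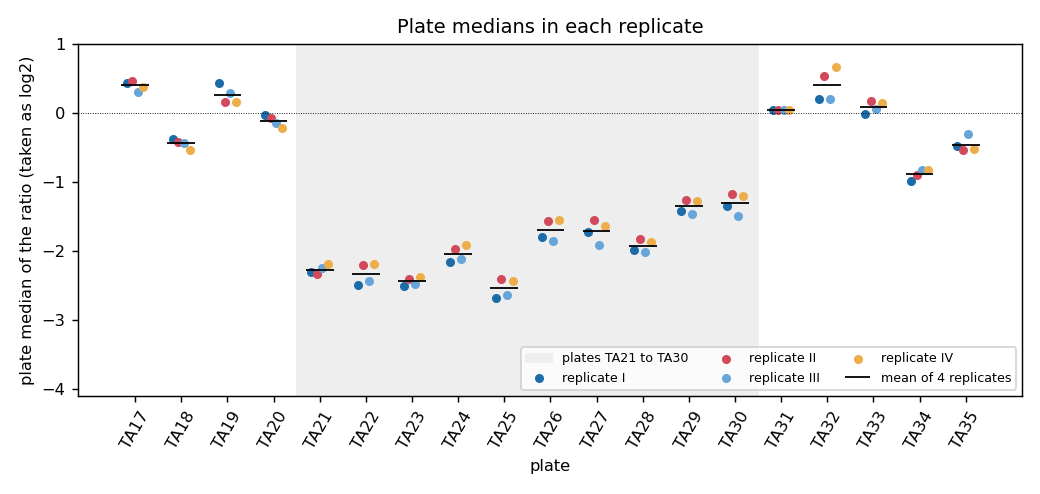
Median ratio of each plate from TA17 to TA35 (vertical axis, taken as log2) in replicates I to IV, with the mean of the 4 as a bar and plates TA21 to TA30 shaded. All 10 shaded plates lie under -1 in every replicate, TA25 lowest at a mean of -2.54, and the outer plates TA20 and TA31 lie near 0.

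Probes called below sat in runs of consecutive wells. There were 117 such runs, 66 of them with 3 or more probes, and these 66 held 566 of the 635 probes called below. With 77.2% of the probes called below, runs form in any order of the probes. Run lengths were not set against another stretch, so these counts are a description. The longest ran from TA24G07 to TA25B11, 41 probes with mean ratios of -2.93, -2.81, -3.05 and -2.82 in replicates I to IV. Its first probe, TA24G07, was at -1.57 right after TA24G06 at 0.65, and its last, TA25B11, was at -3.68 right before TA25B12 at -0.21. Both ends of this run were abrupt.

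The next run, TA23H03 to TA24B08, had 30 probes at -2.40, -2.10, -2.43 and -1.98 in replicates I to IV. TA23A03 to TA23B10 followed with 20 probes at -2.75, -2.72, -2.86 and -2.81. A run of the same length, TA28E11 to TA28G06, lay at -2.32, -2.0, -2.29 and -1.92. These counts break a run at every well without a value. With such wells skipped, the longest run was TA23H03 to TA24E06 with 61 probes.

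The lowest probes were spread over several plates. TA22E12 was lowest, at -4.45, -5.16, -4.30 and -3.60 in replicates I to IV, and a gap of 32 wells without an ID begins 2 wells after it. TA23E03 had -4.20, -4.43, -4.18 and -4.66. It stands out from the next valued probe, TA23E04, which was at -0.25. TA21A04, TA21A07 and TA21A08 followed at -4.30 ± 0.19, -4.24 ± 0.21 and -4.24 ± 0.24 (SD, n = 4), and belong to the deep start described above. From TA21A01 to TA21B12 the 15 valued probes had a median of -3.82 ± 0.22, and 9 wells among them had no value.

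Some probes inside the low stretch were well above the median of the array, some gathered in a few islands and others single. The 55 probes called above formed 29 runs, of which 6 had 3 or more probes and 18 were single probes. Those 6 runs held 27 of the 55. Plates TA26 and TA27 held 13 and 14 of the 55, TA30 held 8, TA25 held 6, TA24 and TA29 5 each, TA21 2, and TA23 and TA28 1 each. TA22 had 0, and its highest probe was at 0.24. Single replicates had 80, 69, 72 and 69 probes over 0.5 in I to IV, and 54 probes were over 0.5 in all 4. The mean share over 0.5 in a replicate was 8.81%, against 35.9% of all valued probes.

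The 2 widest islands were those in which the running median over 11 probes was above 0 for the most probes, a bound chosen after the values were seen. The first, TA26C10 to TA26E11, held 24 probes with medians of 0.85, 0.65, 0.87 and 0.69 in replicates I to IV. Of these, 13 were called above and 0 below, and the single probes ran from -0.28 to 1.77. Its longest run of calls was TA26D03 to TA26D08, 6 probes at a mean of 1.10 ± 0.07. Within it TA26D07 had 1.61, 1.65, 1.63 and 1.63, nearly the same value in every replicate. The island ended with TA26E10, at 1.96, 1.67, 1.77 and 1.69, and TA26E11 at 0.59, and from TA26E12 on a low run of 17 probes lay at -2.23 ± 0.17.

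The second, TA27F01 to TA27G12, held 23 probes with medians of 0.71, 0.93, 0.66 and 0.81 in replicates I to IV, 12 of them called above and 2 below. Its run TA27F07 to TA27G01 was the longest of all, 7 probes at 1.31, 1.23, 1.22 and 1.18. TA27F12 was the highest of that run, at 1.77 ± 0.12, and TA27F07 opened it at 1.34 ± 0.16. TA27G11 had 1.88, 1.72, 1.79 and 1.83 and was the highest probe of the island, next to TA27G12 at 0.01. Before the island, TA27E08 was a single high probe at 2.21, 1.45, 2.09 and 1.21, with lower values in II and IV than in I and III.

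**Figure D3:**
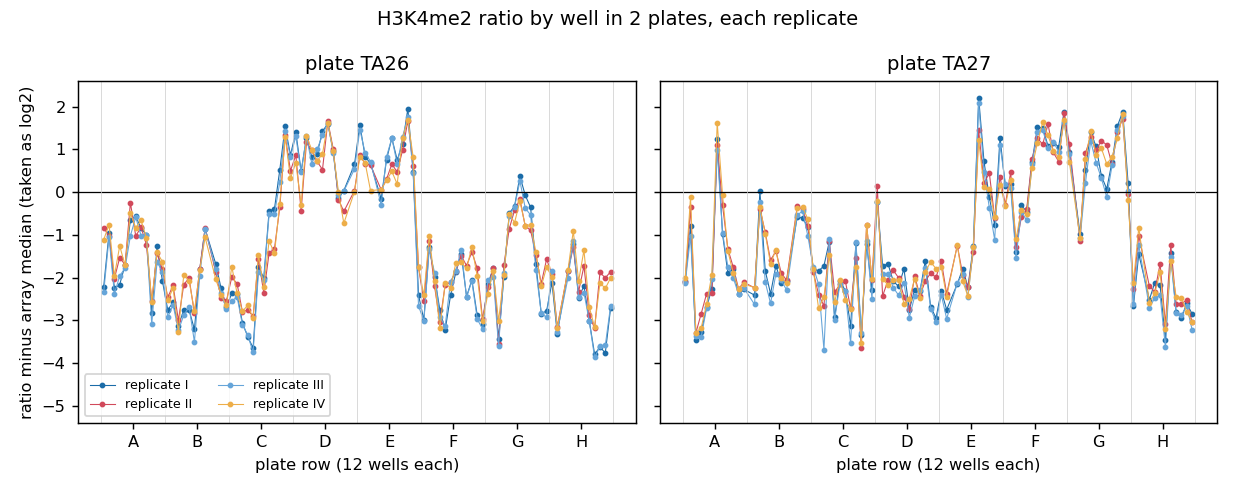
Ratio of each valued probe in replicates I to IV (vertical axis, minus the array median, taken as log2) by well along plates TA26 and TA27, 12 wells to a row. In both plates a low level near -2 gives way to an island above 0, in rows C to E of TA26 and in rows F to G of TA27, and the 4 replicates follow each other through the steps.

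Smaller groups of high probes lay in TA24, TA25 and TA30. In TA24, row G, TA24G03 had 1.75, 1.73, 1.36 and 1.72 in replicates I to IV, next to TA24G02 at -1.89. TA24E12 to TA24F03 held 4 probes at 1.47, 1.21, 1.41 and 1.40 in replicates I to IV, between TA24E11 at -0.26 and TA24F04 at -0.37. TA25C10 to TA25D01 held 4 probes at 1.31, 1.10, 1.08 and 1.05, between TA25C09 at -1.46 and TA25D02 at 0.32. Both groups of 4 were above the median in every replicate, but they were picked as runs of probes called above, so this adds no support. TA24F03, at 1.5 ± 0.19, was the highest probe of the first.

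TA30C11 to TA30D01 held 3 probes at 1.76, 1.63, 1.61 and 1.61. TA30C11 was the highest probe of the 10 plates, at 2.34, 1.77, 2.27 and 1.89 in replicates I to IV. The well before it, TA30C10, was at -2.88, TA30C09 at 1.12 and TA30C08 at -3.16. The ratio thus changed side 3 times within 4 consecutive wells.

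Of the 55 probes called above, 3 had both neighbouring wells called below: TA30C09, TA30H10 and TA21B11. TA30H10 had 1.49, 1.67, 1.41 and 1.67 in replicates I to IV, between -2.40 and -3.66. TA21B11 had 1.05, 0.89, 0.94 and 1.78, between -2.84 and -3.83. TA30C09 and TA21B11 were named after their values were seen. Beside another gap in the IDs, TA29G11 had 1.5, 1.87, 1.23 and 1.86, after TA29G09 at -1.5. A further 7 of the 55 had 1 neighbouring well called below, and 45 had none, counting a well without a value as not called.

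Large steps between consecutive wells were counted over all pairs. In plates TA21 to TA30, 22 of 746 pairs (2.95%) differed by more than 3 in the mean ratio, and 20, 23, 18 and 26 pairs did so in replicates I to IV. The share was 0.69% of 1304 pairs in plates TA37 to TA51, 0.561% of 1069 in plates TC17 to TC30, both of them also low stretches. It was 1.9% of 6693 pairs in the other TA plates and 1.06% of 20796 over the array. Across probes, the Pearson correlation of the mean ratio between wells in the 10 plates was 0.64 at 1 well apart (746 pairs), 0.56 at 2, 0.38 at 5, 0.15 at 12 and -0.02 at 24. Wells 12 apart stand in the same column of neighbouring rows, and they were no more alike than wells 11 apart (0.21) or 13 apart (0.16). These correlations describe probes that share arrays, so no p is given.

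The 10 plates were compared with the other low stretches in the shape of their values. The median of -1.99 ± 0.11 stood beside -2.10 ± 0.16 in TA37 to TA51 (1342 probes) and -2.14 ± 0.15 in TC17 to TC30 (1102 probes). Within each replicate the median of TA21 to TA30 was the highest of the 3, by 0.11 ± 0.06 over TA37 to TA51 and by 0.15 ± 0.05 over TC17 to TC30 (SD, n = 4). The distance between the quartiles was 1.87 ± 0.05 in TA21 to TA30, 1.26 ± 0.04 in TA37 to TA51 and 1.17 ± 0.03 in TC17 to TC30. It was wider in TA21 to TA30 in 4 of 4 replicates, by 0.62 ± 0.03 and 0.70 ± 0.02. Over all valued probes this distance was 1.91 ± 0.07, and in the other TA plates 1.73 ± 0.05. The other low stretches were thus the narrow ones. Within TA21 to TA30 it was 1.49 ± 0.09 in TA21 to TA25 and 2.1 ± 0.1 in TA26 to TA30. Both tails held more probes in TA21 to TA30 than in the other low stretches. At the upper end, 8.81% ± 0.631 of the probes of TA21 to TA30 were over 0.5 (mean of 4 replicates, SD), against 2.16% ± 0.399 and 1.93% ± 0.155. Under -3 were 19% ± 2.78, against 12.9% ± 3.63 and 12.9% ± 4.89, and within each replicate the excess was 2.38 to 8.84 percentage points. Over all valued probes, 35.9% ± 0.528 were over 0.5 and 3.29% ± 0.716 under -3. The upper tail of TA21 to TA30 was thus smaller than that of the array. Plates TA21 to TA25 had 25.8% ± 3.62 under -3 and 4.89% ± 0.48 over 0.5. Plates TA26 to TA30 had 12.8% ± 2.14 under -3, level with the other low stretches, and 12.4% ± 0.838 over 0.5. The low stretches compared here were all chosen by low values of the same ratio. With 4 replicates the smallest two-sided p of an exact permutation of signs is 0.125, so these values stand without a test.

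**Figure D4:**
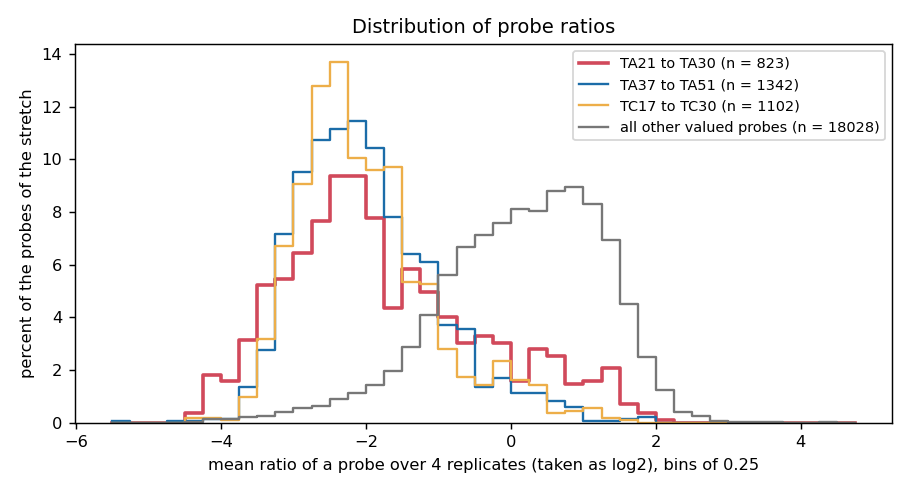
Distribution of the mean ratio of a probe over 4 replicates (horizontal axis, taken as log2, bins of 0.25) as a percent of the probes of each stretch (vertical axis). Plates TA21 to TA30 peak near the same ratio as TA37 to TA51 and TC17 to TC30 but have a larger share of probes above 0, while all other valued probes lie mostly between -1 and 2.

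The replicates followed each other within the 10 plates as they did on the array. Across the 823 probes the Pearson correlation was 0.99 for the pair I, III and for the pair II, IV. It was 0.95 for II with either I or III and 0.94 for IV with either I or III, the same to 2 decimals as over all probes. Differences within the pair I, III had an SD of 0.19 and those within II, IV an SD of 0.22, against 0.43 to 0.49 in the other pairs. The titles put I with II and III with IV by shared numbers, and the likeness does not follow these sets. Single probes had a median SD of 0.22 over the replicates. It was 0.23 for the 145 probes under -3 and 0.18 for the 73 probes at 0.5 or more.

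Replicates II and IV were not shifted against I and III by the same amount everywhere. Of the 66 low runs of 3 or more probes, II and IV both had higher means than I and III in 37, both had lower means in 16, and the order was mixed in 13. At the deep start, TA21A01 to TA21A04 lay at -3.70, -4.08, -3.73 and -4.17 in replicates I to IV, lower in II and IV. In TA22H10 to TA23A01, also 4 probes, the means were -3.83, -3.15, -3.87 and -3.10, higher in II and IV. The range over replicates exceeded 1 for 65 probes (7.90%), against 6.16% of all probes. It was largest in TA27C03, at -1.73, -2.66, -3.68 and -2.46, where I and III were the farthest apart. TA21H09 had -2.94, -1.25, -2.89 and -1.16, TA26H11 -3.77, -2.01, -3.59 and -2.26, and TA22D04 -2.54, -1.51, -1.93 and -0.79. In these 3, II and IV were both higher than I and III. All 4 were below the median in every replicate.

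Wells without a usable probe were frequent in these plates. Of their 960 wells, 823 (85.7%) had a value, 63 (6.56%) had an ID but no value, and 74 (7.71%) had no ID in the table. In TA37 to TA51 these shares were 93.2%, 0.694% and 6.11% of 1440 wells, and in the other TA plates 97.0%, 2.87% and 0.113% of 7104 wells. Among the wells without an ID, 32 lay in 1 gap, TA22F02 to TA22H09, and 19 were scattered over TA29. TA25 had the most IDs without a value, 18, followed by TA28 with 12 and TA23 and TA30 with 11 each, while TA22, TA24, TA26 and TA29 had 0. Why these wells have no value was not tested.

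The valued probes within 2 wells of an ID without a value were lower than the rest of the 10 plates. The 121 probes near such an ID had medians of -2.35, -2.41, -2.42 and -2.43 in replicates I to IV, against -1.98, -1.80, -2.02 and -1.79 for the other 702. The difference averaged -0.50 ± 0.13 (SD, n = 4) and was negative in all 4. In TA37 to TA51, where only 34 probes were near such an ID, it was 0.20 ± 0.06, and in the other TA plates -0.15 ± 0.02. The 4 replicate medians had an SD of 0.04 near these IDs, against 0.12 for the other probes. These are SDs of group medians and do not measure how far the replicates differ at single probes. The comparison of wells was chosen after the data were seen. It was not made within plates, so differences between plates enter it. TA22, TA24, TA26 and TA29 had 0 IDs without a value, so the plates differ in how many of their probes are near one. Whether the difference holds within the remaining plates was not tested.

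**Figure D5:**
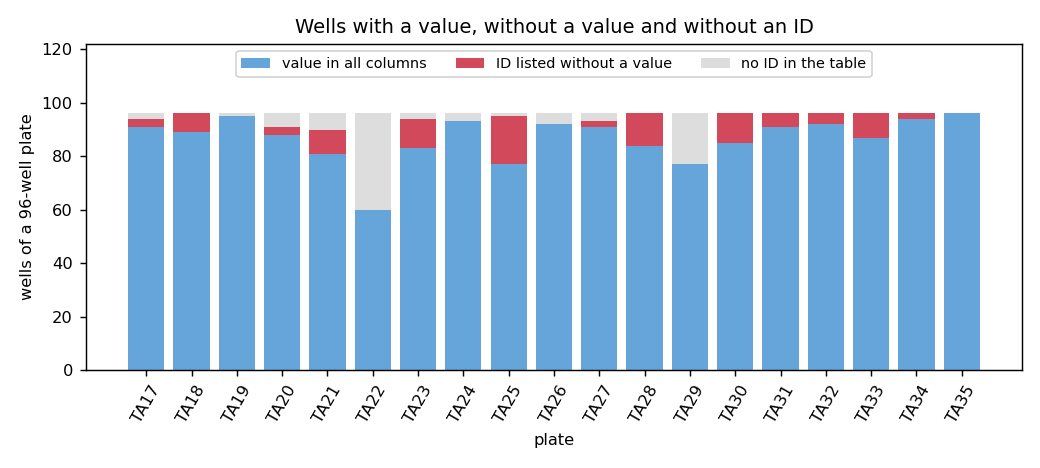
Number of the 96 wells of each plate from TA17 to TA35 (vertical axis) that have a value in all columns, an ID without a value, or no ID in the table. Of TA21 to TA30, TA22 has the fewest valued wells, 60, and lacks 36 IDs, while TA25 has 77 valued wells and 18 IDs without a value.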

How the data were processed

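One table was used, with 21800 probe IDs and 8 columns, 1 per array. Its values are the authors' processed log ratios, read as log2 from their range; background correction, normalization, base and direction are not given in the sources used. Scanner signals were not used here. One column per dye swap was kept (n = 4), probes without a value were left out, and each replicate was centred on its median with no further normalization. Ratios were fitted with limma 3.58.1 in R 4.3.3 (lmFit, treat with a bound of 0.5, two-sided, Benjamini-Hochberg over 21295 probes, 0.05). The script was tested on simulated data with independent replicates. That test did not include the likeness of I with III and II with IV, so it does not bear on how many calls are false here. Runs, islands and gaps were computed in Python 3.11.15 with numpy 2.4.6 and pandas 2.3.3; wells were ordered by plate, row and well.

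The plates, the tests and the lists were chosen with earlier results of these data known. Named probes were, by rule, the 10 highest called above and the 5 lowest called below with 1 sign in 4 replicates, the 4 with the largest range, the ends of the 3 longest low runs and of high runs of 3 or more, and 3 on each side of each bound; others are named as neighbours or ends of described stretches. The labels name no separate cultures, so a p-value covers the spread of these 4 samples alone, possibly a technical one. No depth can be given for arrays; their number limits the precision.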

Additional observations from a re-analysis of the deposited data

Results flagged for a closer look

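In 3 of 73 values examined (the median of the 10 plates, the plate medians, the runs described and single probes), 1 replicate stood apart from the other 3 by Dixon's 95% criterion. For independent replicates chance flags about 1 in 20. With I like III and II like IV, that rate need not hold here. TA21C11, a single probe called above in plate TA21, had 2.01 in replicate IV, against 0.91, 0.85 and 0.83 in I to III. TA24G03, the sixth highest probe, had 1.36 in replicate III, against 1.75, 1.73 and 1.72 in I, II and IV. The run TA30C11 to TA30D01 had 1.76 in replicate I, against 1.63, 1.61 and 1.61 in II to IV.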

How the results depend on the processing

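The count of probes called below, 635, stayed within 1.5 times under every alternative run (550 with a bound of 1, up to 696 centred on the mode). Plates 22 to 29 alone hold fewer probes, 657, so there the shares are the like measure. In them 506 (77%) were called below and 45 (6.85%) above, against 77.2% and 6.68% of the 823. The 55 called above became 21 without centring, 20 centred on the mode, 90 without a size bound and 25 with a bound of 1; it was 45 to 55 under the other alternatives, with plates 22 to 29, an adjusted p of 0.01, each replicate left out (47 to 52), quantile normalization, a term for the sets of title numbers (48), and I with III and II with IV as a random block (47). The median of the 10 plates, -1.99, was -2.50 without centring, -2.59 centred on the mode and -1.74 as a mean over probes. By running median, 15 probes before the first bound and 7 after the last were part of the low stretch, or 13 and 5 over 25 probes. Of 540 alternative values of 45 named probes, 512 kept direction and call, 26 lost the call and 2 turned. Both that turned were TA31A03, outside the 10 plates, at -0.47 without centring and -0.56 centred on the mode. All lost calls were on ends of high runs, most often on TA27G09, at 0.70. This probe opens the high run of 3 probes TA27G09 to TA27G11, and it lost its call with any 1 replicate left out. Apart from the place of 0 and the bound itself, the cause was not tested. No paired analysis was possible because the samples form 1 group. What signal over background limits could not be read from ratios.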
